A study of Homo sapiens with 6 samples.

Results

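Interferon-induced restriction factors, the proteins with which a cell blocks steps of viral infection, were followed in T24, a cell line derived from a carcinoma of the human urinary bladder. The 10 genes examined were RSAD2, CMPK2, BST2, SAMD9, SAMD9L, ISG20, XAF1, IFITM1, IFITM2 and IFITM3. They were taken by gene symbol as interferon-induced genes outside the OAS, IFIT, MX and TRIM families, and all 10 were among the 20030 gene rows of the deposited table. RNA sequencing compared 3 libraries of T24 cells labelled NC with 3 libraries of T24 cells labelled sh-circRIMS1, which marks a knockdown of circRIMS1, the circular RNA of the RIMS1 gene. The series title ties circRIMS1 to miR-433-3p and to CCAR1, and the stated purpose was to find messenger RNAs that the knockdown changes. Both groups share the T24 line, the labels name no other treatment, time or clone, and whether the replicates came from separate cultures is not stated, so p-values measure the spread between these samples, which may be technical.

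When interferon binds its receptor, the receptor's kinases set off the assembly of a transcription factor complex that contains IRF9 and binds interferon-stimulated response elements in gene promoters. The induced proteins act at different steps of a viral cycle. IFITM proteins hinder fusion of virus and cell membranes at entry, RSAD2 and ISG20 act on viral RNA or its synthesis, SAMD9 and SAMD9L restrict poxviruses and hold back translation, and BST2 tethers budding virions to the cell surface. Epithelial cells, the cell type of the bladder lining, can make and answer type I and type III interferons.

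Values were FPKM, fragment counts corrected for transcript length and sequencing depth, and they summed to between 268143 and 284682 per library, while the absolute depth is unknown. Replicate 2 of the sh-circRIMS1 group stood apart. Across the tested genes, which are not independent replicates, its log2 values correlated with those of replicates 1 and 3 at Pearson's r of 0.974 and 0.975, against 0.997 within every other pair of the same group. Results are therefore given with and without this library. RIMS1, the host gene, was at 0.426, 0.384 and 0.498 FPKM in NC and at 0.222, 0.24 and 0.308 FPKM in sh-circRIMS1 (exact two-sided permutation p = 0.1). Gene-level FPKM cannot separate circular from linear RNA, so the knockdown itself was not measured. Of 10 epithelial and urothelial markers, the keratins KRT7, KRT8 and KRT18 were between 111 and 525 FPKM in every library. KRT5 was between 1.7 and 3.35 FPKM. EPCAM, GATA3, KRT19 and UPK2 did not exceed 0.919, 0.0959, 0.106 and 0.353 FPKM. UPK1B and UPK3A, proteins of the urothelial surface, were listed at 0 in all 6 libraries. KRT7 fell from 436 ± 9.27 to 298 ± 24.7 FPKM and KRT18 from 516 ± 9.99 to 372 ± 45.1 FPKM (SD, n = 3 each; limma adjusted p = 0.00159 and 0.00742). KRT8 was at 303, 317 and 312 FPKM in NC and at 243, 111 and 241 FPKM in sh-circRIMS1 (limma adjusted p = 0.0904). Of the 4 markers tested 2 were lower, beside 12.7% of all tested genes. Without replicate 2 the count was 3, beside 23.9% of all tested genes. The part of these differences in the results below was not tested. Of 14 leukocyte markers, 6 were listed at 0 in all libraries, among them CD3E and MS4A1, and the leukocyte antigen PTPRC did not exceed 0.0494 FPKM. The summed level of the 14 ran from 5.05 to 6.15 FPKM in NC and from 17.5 to 24.3 FPKM in sh-circRIMS1. Most of that was CD68, a protein of lysosomes that macrophages make in quantity. CD68, the only marker tested, was higher (limma adjusted p = 0.00034), beside 25.0% of all tested genes. CD14 was between 0.619 and 1.26 FPKM. Without replicate 2 CD14 was also tested and both were higher, beside 36.8%. CD8A was at 0.0683 ± 0.0092 FPKM in NC and 0.433 ± 0.195 FPKM in sh-circRIMS1 (SD, n = 3 each). ITGAM was listed at 0 in NC and between 0.00951 and 0.0448 FPKM in sh-circRIMS1. CD4, LYZ and IL3RA did not exceed 0.0114, 0.035 and 0.151 FPKM.

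All 10 restriction factor genes were higher in sh-circRIMS1 than in NC. The largest rises were those of RSAD2 and CMPK2, about 36-fold in mean FPKM, and the smallest was that of IFITM2, at 1.5-fold. Each of the 10 passed limma's test at an adjusted p under 0.05, adjusted over all 10408 tested genes, of which 25.0% were called higher and 12.7% lower. In each of the 10 genes the 3 sh-circRIMS1 libraries lay above the 3 NC libraries, as did those of 35.5% of all tested genes. Changes are sh-circRIMS1 minus NC on log2(FPKM + 0.5), a scale that understates the change of low genes. The median change of the 10 genes was 2.70, against 0.06 for all tested genes, and 2.99 without sh-circRIMS1 replicate 2, when the 10 genes were again called and 36.8% of all tested genes were higher. A gene was tested when its FPKM averaged 1 or more across all 6 libraries. RSAD2, CMPK2, ISG20, XAF1 and SAMD9L had NC means below 1 and passed through their sh-circRIMS1 level, so the count is read with that limit, and all 10 were also called with no filter, when 20.8% of all genes tested were higher. In RNA from many cells, more expressing cells and more RNA per cell cannot be told apart. With the libraries scaled by the median of ratios, 17.2% of genes were called higher and 23.4% lower, and the 10 genes were still higher.

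**Figure D1:**
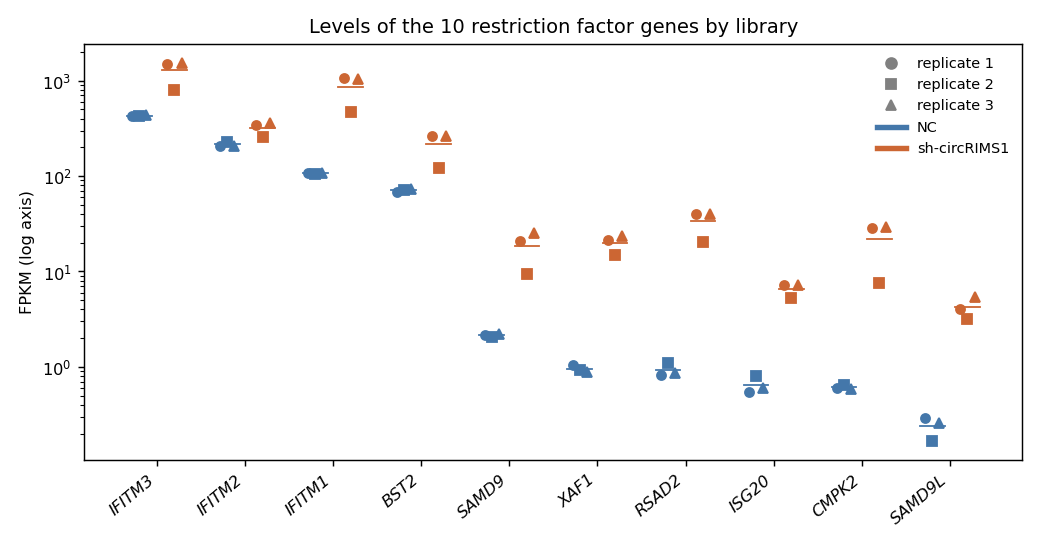
FPKM of each restriction factor gene on a log axis, with 1 point per library (symbols mark the replicate), short lines at the group means, NC in blue and sh-circRIMS1 in orange, ordered by NC level. Every orange point lies above every blue point of its gene, and replicate 2 is the lowest sh-circRIMS1 point of all 10 genes.

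The RefSeq promoter windows of the genes, which run from 250 bases before to 50 bases after an annotated start on GRCh38.p14, were searched on both strands for the core of the interferon-stimulated response element, which is a pair of GAAA words with any 2 bases between them. Windows were held for 9 of the 10 genes and not for IFITM2, and RSAD2, CMPK2 and XAF1 had several starts. The core was found for 6 of these 9 genes, beside 4.38% of all 27305 genes with a window. Counted by window, it was in 3.57% of all 35116 windows of this length. The stretches below show these matches in capitals, each 5′ to 3′ on the strand of its gene. The capitals are letters that fit the core of the element, and whether the complex that contains IRF9 binds them was not tested. The sources used here do not give the build behind the deposited FPKM, and a match is no measurement of binding.
RSAD2, chr2:6877612-6877661, plus strand: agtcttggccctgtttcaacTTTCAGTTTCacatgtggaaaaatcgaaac
BST2, chr19:17405725-17405780, minus strand: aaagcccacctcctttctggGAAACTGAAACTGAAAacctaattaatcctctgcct
SAMD9, chr7:93118086-93118135, minus strand: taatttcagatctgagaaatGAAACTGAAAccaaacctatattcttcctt
ISG20, chr15:88638927-88638976, plus strand: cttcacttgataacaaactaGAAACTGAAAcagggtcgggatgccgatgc
IFITM1, chr11:313980-314043, plus strand: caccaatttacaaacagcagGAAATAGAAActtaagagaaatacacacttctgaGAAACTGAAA
IFITM3, chr11:320866-320932, minus strand: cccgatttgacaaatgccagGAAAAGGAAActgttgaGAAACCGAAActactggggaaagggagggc
The RSAD2 match reads on the opposite strand, so it is printed as a pair of TTTC words. In BST2 a pair of overlapping matches begins 130 and 124 bases before the start. In IFITM1 the matches begin 40 and 6 bases before the start, and in IFITM3 they begin 52 and 35 bases before it.

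The windows of XAF1, of CMPK2 and of the other start of RSAD2 held no match to this core. At least 1 window of each gene held GAAANGAAA, in which the GAAA words stand 1 base apart, a form that was added after the windows had been read and that occurs in 3.12% of all windows. The first RSAD2 window held 4 copies and shared 165 bases with a CMPK2 window on the opposite strand, since these neighbouring genes overlap and are read away from each other. The 2 copies counted for CMPK2 lie in these shared bases and are the same sites as 2 of the RSAD2 copies. The copy of RSAD2 that starts 60 bases before that start and the copy of XAF1 that reaches 4 bases past its start are shown here with the match in capitals.
RSAD2, first window, chr2:6865815-6865843, plus strand: gcgttgcgggGAAACGAAAgccggaggcc
XAF1, chr17:6756021-6756049, plus strand: ttttgtttccttgcctgcaaGAAACGAAA
In SAMD9 a GAAANGAAA overlaps the printed core. SAMD9L had neither form in its window, which says only that these letters are not in it. TTCNNNGAA, the GAS element of genes that answer interferon gamma, was found for BST2 and IFITM1, which are 2 of the 9 genes with a window. It was found for 9.38% of all genes and in 7.66% of all windows. The BST2 and IFITM1 windows each hold a GAS match that overlaps a printed core, and BST2 has another, closer to its start.

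**Figure D2:**
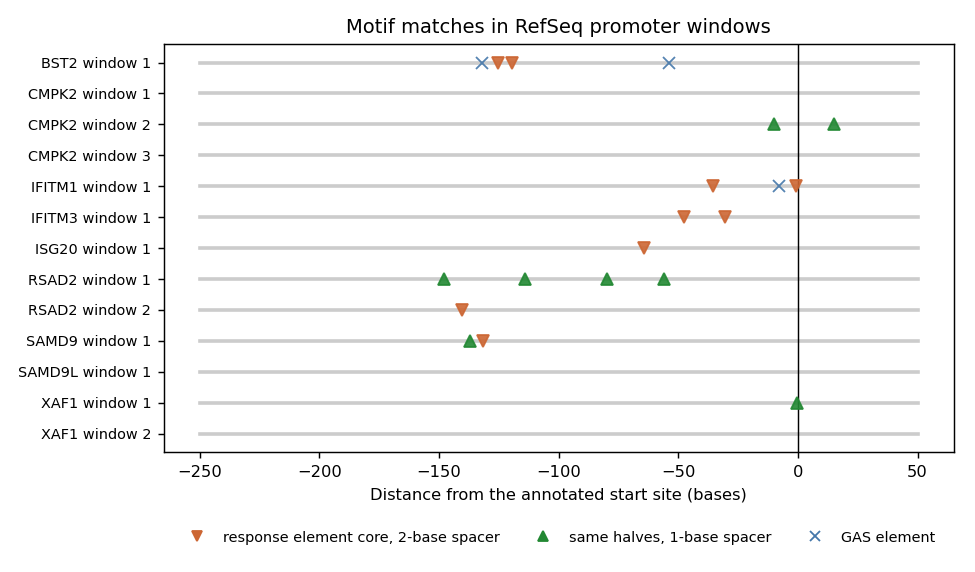
Positions of motif matches, in bases from the annotated start (vertical line at 0), in the 13 RefSeq windows of 9 restriction factor genes, each grey bar being 1 window. Downward triangles mark the 2-base-spacer core, upward triangles the 1-base-spacer form and crosses the GAS element, and the upward triangles line up as 4 copies in the first RSAD2 window.

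RSAD2 encodes viperin, a radical SAM enzyme that turns CTP into a nucleotide that ends viral RNA chains. Its FPKM (GeneID 91543) was 0.83, 1.11 and 0.86 in NC and 40.1, 20.6 and 40.3 in sh-circRIMS1. The groups did not overlap, and sh-circRIMS1 replicate 2 was at 51.3% of the mean of replicates 1 and 3. The mean rose from 0.932 ± 0.151 to 33.7 ± 11.3 FPKM (SD, n = 3 each), or by 4.52 ± 0.26 (SE) on the log2 scale (limma adjusted p = 0.000109), the sixth largest of all tested genes. Without replicate 2 the change was 4.83.

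CMPK2 encodes a mitochondrial nucleotide kinase that phosphorylates CMP and UMP, and it lies beside RSAD2. Its FPKM (GeneID 129607) was 0.605, 0.645 and 0.58 in NC and 28.6, 7.52 and 29.6 in sh-circRIMS1. The groups did not overlap, and replicate 2 was far below the other sh-circRIMS1 libraries, at 25.8% of their mean, the lowest such share among the 10 genes. The log2 change amounted to 4.11 ± 0.49 (SE; limma adjusted p = 0.00127), and 4.74 without replicate 2. On the log2 scale RSAD2 exceeded CMPK2 by 0.27, 0.49 and 0.33 in NC and by 0.48, 1.40 and 0.44 in sh-circRIMS1. The groups overlapped in this ratio, whose change of 0.41 (exact two-sided permutation p = 0.3, adjusted p = 0.4 over 4 ratios) went to 0.10 without replicate 2. Because the genes overlap on opposite strands and the sources used here do not say whether counting used strand, reads of the shared bases cannot be told apart.

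BST2 encodes tetherin, a membrane protein that holds enveloped virions at the surface of the cell that made them. Its FPKM (GeneID 684) was 68.4, 70.8 and 73.0 in NC and 266, 121 and 263 in sh-circRIMS1. It was thus well expressed before the rise, its groups did not overlap, and replicate 2 lay closer to NC than to the other sh-circRIMS1 libraries. The log2 change amounted to 1.52 ± 0.29 (SE), with 95% limits of 0.83 and 2.22 (limma adjusted p = 0.00782). Without replicate 2 it was 1.90.

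The IFITM genes encode small membrane proteins that make cell membranes resist fusion with a virus, IFITM1 mainly at the cell surface and IFITM2 and IFITM3 mainly in endosomes. They were the most abundant of the 10 in NC and differed in how far they rose. IFITM1 (GeneID 8519) was at 109, 106 and 107 FPKM in NC and at 1069.7, 473 and 1048 FPKM in sh-circRIMS1, an 8.05-fold rise in mean FPKM. IFITM3 (GeneID 10410) was at 425, 428 and 441 FPKM in NC and at 1503, 803 and 1538 FPKM in sh-circRIMS1, a 2.97-fold rise. IFITM2 (GeneID 10581) was at 207, 228 and 208 FPKM in NC and at 347, 257 and 358 FPKM in sh-circRIMS1. The groups did not overlap in any of the 3 genes, but IFITM2 in replicate 2 lay near its highest NC library.

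The log2 changes of the IFITM genes were 2.91 for IFITM1, 1.51 for IFITM3 and 0.57 for IFITM2, with standard errors of 0.30, 0.24 and 0.13 (limma adjusted p = 0.000758, 0.00375 and 0.0149). Without sh-circRIMS1 replicate 2 they were 3.30, 1.82 and 0.72. The IFITM2 call was lost without NC replicate 1 (limma adjusted p = 0.0619) and without NC replicate 3 (limma adjusted p = 0.0616), with a change of 0.54 in both. Relative to IFITM3 in the same library, IFITM1 gained 1.40 on the log2 scale, from -2.0 ± 0.04 to -0.60 ± 0.14 (SD, n = 3 each, exact two-sided permutation p = 0.1). IFITM2 moved the other way relative to IFITM3, by -0.94, from -1.01 ± 0.09 to -1.95 ± 0.27 (SD, n = 3 each, exact two-sided permutation p = 0.1). Neither ratio overlapped between the groups, the adjusted p of both was 0.2 over 4 ratios, and 3 against 3 libraries cannot give an exact p below 0.1. IFITM2 was above IFITM1 in all 3 NC libraries and IFITM1 above IFITM2 in all 3 sh-circRIMS1 libraries. Together the 3 genes made up between 0.263% and 0.269% of all FPKM in NC and 1.04%, 0.572% and 1.03% in sh-circRIMS1 replicates 1, 2 and 3. The IFITM genes are close copies of each other, so the split of reads among them is uncertain, and IFITM3 also overlaps the antisense gene IFITM3-AS1 in RefSeq.

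SAMD9 and SAMD9L are neighbouring paralogs whose products restrict poxviruses and slow cell growth and protein synthesis. SAMD9 (GeneID 54809) was at 2.15, 2.07 and 2.20 FPKM in NC and at 21.1, 9.46 and 25.6 FPKM in sh-circRIMS1. SAMD9L (GeneID 219285) was the lowest of the 10, at 0.288, 0.168 and 0.257 FPKM in NC and at 4.02, 3.16 and 5.42 FPKM in sh-circRIMS1. In both genes the groups did not overlap and replicate 2 was the lowest sh-circRIMS1 library. The log2 changes were 2.75 and 2.65, with standard errors of 0.33 and 0.18 (limma adjusted p = 0.00135 and 0.000192), and 3.17 and 2.81 without replicate 2. In mean FPKM the rise was 8.75-fold for SAMD9 and 17.7-fold for SAMD9L. Which of the pair changed more therefore depends on the scale. The log2 ratio of SAMD9L to SAMD9 moved by -0.10 with the pseudocount of 0.5 (exact two-sided permutation p = 0.8, adjusted p = 0.8 over 4 ratios) and by 0.70 with a pseudocount of 0.1.

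ISG20 encodes an exonuclease that degrades single-stranded RNA. Its FPKM (GeneID 3669) was 0.545, 0.794 and 0.605 in NC and 7.19, 5.29 and 7.26 in sh-circRIMS1. The groups were far apart, and replicate 2, at 73.2% of the other sh-circRIMS1 libraries, was closer to them than in any other of the 10 genes. The log2 change amounted to 2.62 ± 0.14 (SE; limma adjusted p = 9.82e-05), and 2.76 without replicate 2.

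XAF1 encodes a pro-apoptotic protein that binds XIAP, an inhibitor of caspases. Its FPKM (GeneID 54739) was 1.04, 0.936 and 0.878 in NC and 21.3, 14.9 and 23.6 in sh-circRIMS1. The groups did not overlap and the spread was small against the difference. The log2 change, 3.79 ± 0.17 (SE), had the lowest adjusted p of the 10 genes (limma adjusted p = 4.54e-05). Without replicate 2 it was 3.98. In RefSeq an uncharacterised long non-coding RNA gene overlaps XAF1, and how reads of the shared bases were assigned is unknown.

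**Figure D3:**
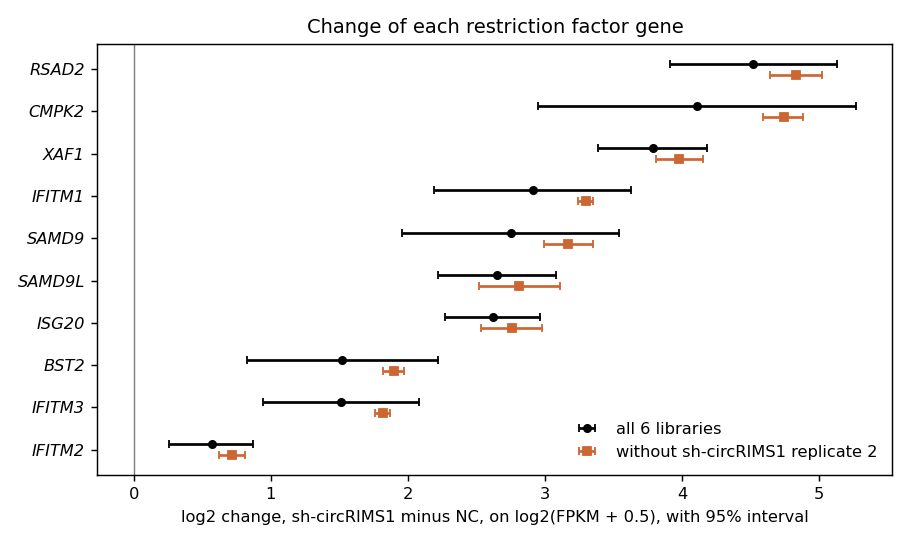
Log2 change of each restriction factor gene, sh-circRIMS1 minus NC on log2(FPKM + 0.5), with the 95% interval of the limma fit, for all 6 libraries (black) and without sh-circRIMS1 replicate 2 (orange). All intervals lie above 0, from IFITM2 at 0.57 to RSAD2 at 4.52, and every point lies farther from 0 without replicate 2.

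The 10 genes spanned a wide range of levels, and their order changed between the groups. In NC the order by mean FPKM was IFITM3 at 431, IFITM2 at 215, IFITM1 at 107, BST2 at 70.7, SAMD9 at 2.14, XAF1 at 0.953, RSAD2 at 0.932, ISG20 at 0.648, CMPK2 at 0.610 and SAMD9L at 0.238. Library ranges of XAF1 and RSAD2, and of ISG20 and CMPK2, overlapped, and the other neighbours in that order were separate. In sh-circRIMS1 IFITM1 at 864 FPKM stood between IFITM3 at 1281 and IFITM2 at 321, followed by BST2 at 217. Library ranges of IFITM3 and IFITM1, and of IFITM2 and BST2, overlapped. RSAD2 at 33.7, CMPK2 at 21.9, XAF1 at 19.9 and SAMD9 at 18.7 FPKM came next with ranges that overlapped from each to the following one. ISG20 at 6.58 and SAMD9L at 4.2 FPKM were again low and also overlapped. RSAD2 and CMPK2 thus lay below SAMD9 in NC and above it by mean in sh-circRIMS1. By size of change, RSAD2, CMPK2 and XAF1 ranked 6, 10 and 11 of 10408 tested genes. IFITM1, SAMD9, SAMD9L and ISG20 ranked 33, 40, 49 and 52, BST2 and IFITM3 182 and 185, and IFITM2 1236.

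**Figure D4:**
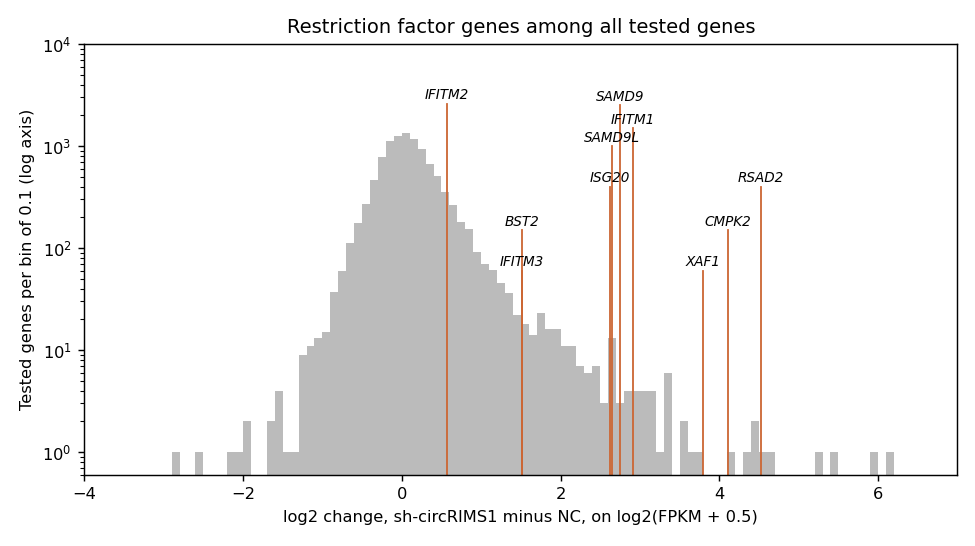
Distribution of log2 changes over 10408 tested genes in bins of 0.1 (log count axis), with orange lines at the 10 restriction factor genes (line heights only separate the names). IFITM2 at 0.57 lies in the shoulder of the distribution, and 6 of the 10 lie among the 50 largest changes.

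The lower level in sh-circRIMS1 replicate 2 was shared by all 10 genes. In each of them replicate 2 lay below both other sh-circRIMS1 libraries, as it did in 33.5% of the 2598 genes called higher. The median level of replicate 2 was 52.0% of the mean of replicates 1 and 3 over the 10 genes, against 105% over all genes called higher and 101% over all tested genes. XAF1, SAMD9L, IFITM2 and ISG20 were at 66.2%, 67.0%, 72.8% and 73.2%, while SAMD9 was at 40.5%. Among 26 other interferon-induced antiviral genes replicate 2 was below both in 25, with a median of 44.5% and a range from 22.2% for IFI6 to 98.1% for the RNA sensor relative DHX58. IRF9, the DNA-binding subunit of the interferon-activated complex, was at 37.4, 37.6 and 35.8 FPKM in sh-circRIMS1, with no lower level in replicate 2. The part of the library in these differences was not tested.

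**Figure D5:**
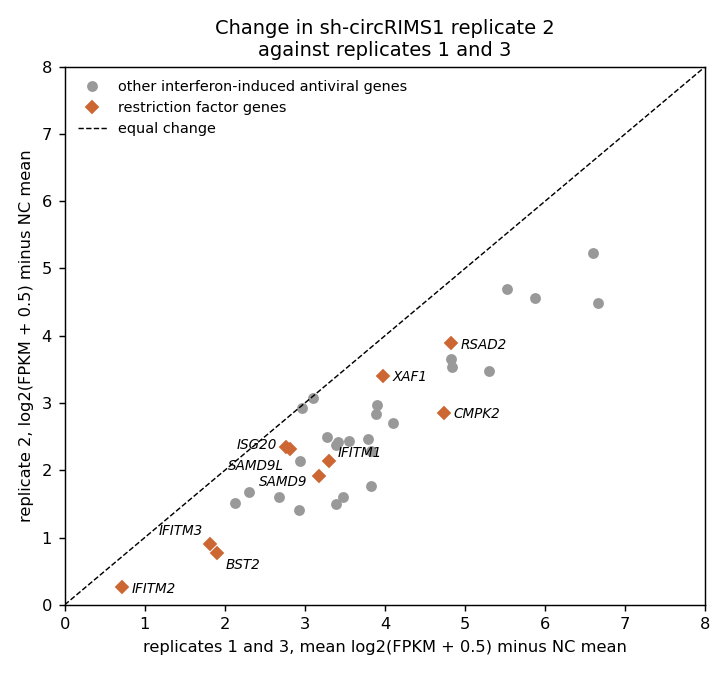
Change from the NC mean on log2(FPKM + 0.5) in sh-circRIMS1 replicate 2 (vertical axis) against the mean of replicates 1 and 3 (horizontal axis), 1 point per gene, for the 10 restriction factor genes (orange) and 26 other interferon-induced antiviral genes (grey). All 10 orange points lie below the dashed line of equal change and above 0.

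Other genes of the pathway gave the setting of these rises. The ligands were low. Of 9 interferon genes 4 were listed at 0 in all libraries and 0 were tested, all with a mean below 1 FPKM. IFNL1, a type III interferon, was at 0.154, 0.0661 and 0.0774 FPKM in NC and at 2.05, 0.378 and 2.40 FPKM in sh-circRIMS1, again lowest in replicate 2. IFNL2, a near copy of IFNL3 and so of uncertain value, was listed at 0 in each NC library, and it was at 0.595, 0.0879 and 0.573 FPKM in sh-circRIMS1. IFNB1 was listed at 0 in every NC library and in sh-circRIMS1 replicate 2, and at 0.306 and 0.197 FPKM in replicates 1 and 3.

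Of 14 receptor, kinase, transcription factor and feedback genes 13 were tested, 11 were higher and the others did not pass, beside 25.0% of all tested genes higher. IRF9 rose from 10.2 ± 0.742 to 36.9 ± 0.978 FPKM, IRF1 from 7.16 ± 0.258 to 19.9 ± 1.2 FPKM and IRF7 from 11 ± 0.826 to 74.6 ± 19.5 FPKM (SD, n = 3 each). The median change of this list was 1.09. All 26 other interferon-induced antiviral genes were higher, to be read beside the same 25.0%, with a median change of 3.16, among them DHX58, the helicase-related DDX60 and IFI27. Some of them, such as DHX58 with an NC mean of 0.687 FPKM, passed the filter through their sh-circRIMS1 level. The count is read with that limit. All 26 were also called with no filter, when 20.8% of all genes tested were higher.

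Of 25 restriction factors of other families, 24 were tested, 20 were higher and 4 did not pass, with a median change of 1.12, where 25.0% of all tested genes were higher. HELZ2, a helicase and nuclear receptor coactivator, rose by 2.50 on the log2 scale. SLFN5, of the Schlafen family, rose by 1.64. CH25H, whose product makes an antiviral oxysterol, rose by 2.98, from 0.165 ± 0.061 to 4.88 ± 1.49 FPKM (SD, n = 3 each). It passed the filter through its sh-circRIMS1 level. With no filter 19 of this list were higher, when 20.8% of all genes tested were. Replicate 2 lay below replicates 1 and 3 in 16 of the 20 called higher, beside 33.5% of all genes called higher. Its share of their mean had a median of 70.2% over the 20, and ran from 40.4% to 140%. SLFN5 was highest in replicate 2, at 132% of the mean of replicates 1 and 3. Without that library 21 of this list were higher and 2 lower, when 36.8% of all tested genes were higher and 23.9% lower.

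Of 11 paralogs and partners of the 10 genes 8 were tested, 2 were higher and 6 did not pass, with a median change of 0.01, and 25.0% of all tested genes were higher. The risers were PNPT1, a mitochondrial RNA-processing enzyme, with a log2 change of 0.88, and AEN, an exonuclease related to ISG20, with a log2 change of 0.53. XIAP, the partner of XAF1, was at 8.08, 7.76 and 7.87 FPKM in NC and at 7.72, 11.7 and 8.37 FPKM in sh-circRIMS1, and the groups overlapped. CMPK1, the cytosolic counterpart of CMPK2, was at 51.4, 49.9 and 49.1 FPKM in NC and at 46.6, 47.4 and 50.9 FPKM in sh-circRIMS1, also overlapping. IFITM5, a bone gene of the IFITM family, was listed at 0 in all 6 libraries.

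The genes whose course over the 6 libraries was nearest to that of RSAD2, by the mean absolute difference in log2(FPKM + 0.5) from the NC mean, were TRIM22 at 0.104, OAS2 at 0.111, the chemokine CCL5 at 0.172 and OAS1 at 0.296. Those nearest to BST2 were PARP10 at 0.0734, SAMHD1 at 0.0895, NFKBIZ at 0.0912 and BTN3A3 at 0.108. SAMHD1, a dNTP hydrolase that restricts retroviruses, was at 18.1, 18.8 and 18.9 FPKM in NC and at 65.1, 26.4 and 65.5 FPKM in sh-circRIMS1. SAMHD1 was chosen for its likeness to BST2 over all 6 libraries, so its low replicate 2 follows from that choice.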

How the data were processed

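The authors deposited 1 table of FPKM with 6 library columns and gene symbols. The submitters' processing notes name HISAT2, StringTie, Cufflinks, HTSeq, Trimmomatic and DESeq. Versions, roles, the genome build and the treatment of shared reads were not given in the sources used here. Per the labels' protocols, ribosomal RNA was depleted, linear RNA digested with RNase R and libraries made strand-specific; linear messenger RNAs were nevertheless abundant. The knockdown columns carry an si prefix and were matched to the sh-circRIMS1 titles by name and number. FPKM is no count, so limma 3.58.1 in R 4.3.3 was run on log2(FPKM + 0.5) for every gene averaging 1 FPKM or more, with an intensity trend, group as the only term, two-sided, and Benjamini-Hochberg adjustment over all 10408 genes at 0.05. The fit was tested on simulated data. Within-library ratios had exact permutation tests. Absolute depth is unknown and no counting interval is given.

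All 10 genes are named. From each pathway list up to 3 called genes with the smallest p were named, or up to 2 with the highest mean where no gene was called, and 4 genes nearest to RSAD2 and to BST2. IFI6, IFNB1, XIAP, CMPK1, IFITM5 and the marker genes were named after their values were seen. The genes and lists were chosen with earlier results of these data known. Alternatives covered the pseudocount, filter, scaling, library weights, a replicate block and leaving out each library. Promoter sequences are those of RefSeq on GRCh38.p14.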

Additional observations from a re-analysis of the deposited data

How the results depend on the processing

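Over 15 alternatives, 146 of 148 values for the 10 genes kept direction and call; SAMD9L and ISG20 were not tested when the minimum mean was 5 FPKM. The exceptions were IFITM2 without NC replicate 1 and without NC replicate 3. Median-of-ratios scaling and quantile normalization each shifted the median of all tested genes by -0.12 on the log2 scale. Relative to that median the 10 genes changed by a median of 2.66 and 2.51. With the main settings this difference was 2.64, from medians of 2.70 for the 10 genes and 0.06 for all tested genes. Over all genes, 2598 higher calls became 1469 with that minimum, 1588 under quantile normalization and 3983 with array weights, and ran from 1630 to 3803 when 1 library was left out. The 1322 lower calls became 2429 with median-of-ratios scaling, 2085 under quantile normalization and 2424 with array weights, and ran from 685 without NC replicate 1 to 2474 without sh-circRIMS1 replicate 2. The restriction factors of other families had 1 lower call with median-of-ratios scaling, quantile normalization or array weights, and 0 to 2 with 1 library left out. Their 20 higher calls became 17 with median-of-ratios scaling or quantile normalization, and ran from 16 to 21 when 1 library was left out. The paralogs and partners had 2 lower calls with median-of-ratios scaling and 1 with array weights; leaving out 1 library gave 1 to 2 higher and 0 to 1 lower. In the interferon genes 1 was called higher with no filter and after rescaling to TPM. The change in the ratio of SAMD9L to SAMD9, -0.10, turned to 0.70 with a pseudocount of 0.1, was -0.49 with a pseudocount of 1, and ran from -0.35 to 0.05 when 1 library was left out. Where no cause is given, the cause was not tested.

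Whether replicate numbers pair the samples is not stated. Deviations of same-numbered libraries from their group means correlated at -0.0258, -0.00335 and -0.0402 across genes. As sh-circRIMS1 replicate 2 stood apart, it weighs on the deviations of its whole group. These correlations therefore cannot decide whether samples were paired. With the replicate block 2142 genes were higher and 996 lower, with all 10 restriction factor genes higher.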

Other observations

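The share of genes with the core of the interferon-stimulated response element in a RefSeq promoter window differed between the lists examined, as a description without a test. It was 4.38% over the 27305 genes of the window table and 6 of 9 among the restriction factor genes of the report with a window. It was 16 of 19 among the other interferon-induced antiviral genes with a window and 3 of 17 among the restriction factors of other families with one. With the 1-base-spacer form counted as well, which was added after the windows had been read, the shares were 7.83% over all genes, 18 of 19 and 5 of 17. The share was 8 of 9 for the restriction factor genes of the report, where the CMPK2 copies are sites also counted for RSAD2. Genes with several starts have more windows in which a match can fall. The GAS element was found in 9.38% of all genes, in 6 of 19 and in 4 of 17.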
